A study of Mus musculus with 40 samples.

Results

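The genes described here are 41 cell cycle and proliferation genes, picked by gene symbol from the table of normalized RNA-sequencing values of 4T1 and 66cl4 primary tumors. All 41 symbols were found among the 14318 genes of the table. They were read as 3 lists, namely 23 genes of mitosis, 13 genes of DNA replication and nucleotide supply, and 5 regulators (Foxm1, Mybl2, E2f1, Ccna2 and Ccne1).

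The study asked whether chitin, given to block chitinase-like proteins, changes the response of triple-negative mammary tumors to anti-PD-1 immune checkpoint blockade. 4T1 and 66cl4 are mouse mammary tumor cell lines, and both carried firefly luciferase. Lactating WT female BALB/c mice, mated at 8 w of age, received the cells into the milk ducts of a mammary gland pair, with fewer 4T1 than 66cl4 cells per gland. Primary tumors were collected at 5 w post-inoculation (p.i.). Mice were untreated, or received 200 µg anti-PD-1 (clone RMP1-14), 1 mg chitin particles, or chitin+anti-PD-1, each by intraperitoneal injection. Each of the 8 groups had 5 tumors, apart from 4 in the untreated 4T1 group, where the authors excluded tumor 3 for degraded RNA, so that 19 tumors of 4T1 and 20 of 66cl4 were compared. Each model rests on 1 cell line, and RNA came from whole tumor tissue. A lower value of a cell cycle gene in such bulk RNA cannot tell fewer dividing cells from less RNA of that gene per cell.

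Cells that commit to division copy their DNA in S phase and separate it in mitosis. The genes of the replication machinery are switched on by E2F factors as cells leave G1, whereas the genes of mitosis are switched on later, by complexes that hold the factors encoded by Mybl2 and Foxm1. Most of these genes are nearly silent in resting cells, which is why the protein of Mki67 is used to count dividing cells in breast tumors.

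Recovered reads on the listed genes ran from 5105898 to 14800352 per tumor, with a median of 6590274. Depth was highest in the chitin groups of 66cl4, with medians of 10250227 reads under chitin and 8985408 under chitin+anti-PD-1, against 6064018 in untreated and 6166518 in anti-PD-1-treated tumors. In 4T1 the medians were 8759930 under chitin, 6504793 under chitin+anti-PD-1, 6295440 in untreated and 6164483 in anti-PD-1-treated tumors. The epithelial genes Epcam and Cdh1 were abundant in 4T1 tumors, where Epcam had a lowest value of 1958 normalized counts, whereas its highest value in a 66cl4 tumor was 123. The epithelial gene Krt8 was abundant in both models and overlapped, with 4548 to 17140 in 4T1 and 3152 to 5709 in 66cl4. Some tumors carried skeletal muscle, fat or milk gene RNA. In 12 of them (9 of 4T1, 3 of 66cl4) the mean value of 1 of these marker lists exceeded 8.5 on the log2 scale, and each count of called genes was also made without them.

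RefSeq (GRCm38.p6, the same build as mm10) gave the promoter, taken as 250 bases before to 50 after the transcription start, for 34 of the 41 members and for 11295 genes of the table. Promoters were searched on both strands for 3 motifs known from cell cycle genes. These were the cell cycle homology region (CHR), TTTGAA, the CCAAT box, CCAAT, and the E2F site in the forms TTCCCGC or TTGGCGC or TTCGCGC or TTGCCGC. A CHR was held by 15 of 20 mitosis promoters (75%), by 1 of 11 replication promoters (9.09%) and by 14.9% of all promoters. An E2F form was held by 4 of 20 mitosis promoters, by 8 of 11 replication promoters (72.7%) and by 18.3% of all promoters. These shares depend on the window and on the motif. In the 150 bases before the start, 7 of 20 mitosis promoters held a CHR, against 6.94% of all promoters. There, 5 of 11 replication promoters (45.5%) held an E2F form, against 10.9% of all promoters. Over the whole window, 4 of 11 replication promoters (36.4%) held a wider CHR that also counts TTCGAA and TTTAAA, against 25.1% of all promoters. The CCAAT box was held by 18 of 20 mitosis promoters (90.0%), 8 of 11 replication promoters (72.7%) and 42.9% of all promoters. Of the mitosis promoters, 15 of 20 had both CHR and CCAAT, against 7.3% of all promoters. The 3 regulators with an entry (Mybl2, E2f1 and Ccne1) held none of the 3 motifs in this window. For E2f1 and Mybl2 the RefSeq start lay 466 and 308 bases inside the annotated gene. Their windows thus lay within the gene and could not show motifs before its annotated start.

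The following promoters are examples of each list, of which Ccnb1 and Mcm2 do not follow the shares of their lists, with every match in capitals and the rest in lower case. Ccnb1 (chr13:100786437-100786736, minus strand), Cdc20 (chr4:118437294-118437593, minus strand) and Plk1 (chr7:122159185-122159484, plus strand) belong to the mitosis list. Mcm2 (chr6:88898731-88899030, minus strand) and Mcm5 (chr8:75109259-75109558, plus strand) belong to the replication list. Ccne1 (chr7:38107441-38107740, minus strand) is a regulator. Each is written 5′ to 3′ in the direction of the gene.
Ccnb1: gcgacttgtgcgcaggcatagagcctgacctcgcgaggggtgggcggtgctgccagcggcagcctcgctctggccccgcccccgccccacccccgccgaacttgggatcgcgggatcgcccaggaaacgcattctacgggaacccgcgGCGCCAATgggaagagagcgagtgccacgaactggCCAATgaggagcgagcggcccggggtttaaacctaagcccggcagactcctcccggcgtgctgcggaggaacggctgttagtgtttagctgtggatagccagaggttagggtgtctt
Cdc20: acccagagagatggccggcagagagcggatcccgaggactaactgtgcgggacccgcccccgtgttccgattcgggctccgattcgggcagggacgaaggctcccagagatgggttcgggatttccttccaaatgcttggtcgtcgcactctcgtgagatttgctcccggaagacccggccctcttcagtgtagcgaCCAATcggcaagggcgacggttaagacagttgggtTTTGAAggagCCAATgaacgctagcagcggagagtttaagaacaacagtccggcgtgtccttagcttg
Plk1: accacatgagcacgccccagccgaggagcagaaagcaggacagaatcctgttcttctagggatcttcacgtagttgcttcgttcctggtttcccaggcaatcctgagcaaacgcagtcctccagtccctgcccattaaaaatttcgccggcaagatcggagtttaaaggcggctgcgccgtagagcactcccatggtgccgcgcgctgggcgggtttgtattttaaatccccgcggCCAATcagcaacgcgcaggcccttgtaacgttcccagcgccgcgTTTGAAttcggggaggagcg
Mcm2: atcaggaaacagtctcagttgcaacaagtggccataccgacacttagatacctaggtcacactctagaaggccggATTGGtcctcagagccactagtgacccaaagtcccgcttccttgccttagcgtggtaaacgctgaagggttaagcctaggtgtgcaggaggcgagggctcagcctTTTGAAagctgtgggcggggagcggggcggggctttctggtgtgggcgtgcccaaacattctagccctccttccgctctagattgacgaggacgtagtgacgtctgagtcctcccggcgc
Mcm5: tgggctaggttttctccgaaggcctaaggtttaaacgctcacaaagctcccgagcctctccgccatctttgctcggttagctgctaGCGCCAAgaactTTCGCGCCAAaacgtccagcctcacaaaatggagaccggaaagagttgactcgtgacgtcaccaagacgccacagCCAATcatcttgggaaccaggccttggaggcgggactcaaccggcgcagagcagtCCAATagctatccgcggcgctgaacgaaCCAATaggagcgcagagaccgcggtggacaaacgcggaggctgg
Ccne1: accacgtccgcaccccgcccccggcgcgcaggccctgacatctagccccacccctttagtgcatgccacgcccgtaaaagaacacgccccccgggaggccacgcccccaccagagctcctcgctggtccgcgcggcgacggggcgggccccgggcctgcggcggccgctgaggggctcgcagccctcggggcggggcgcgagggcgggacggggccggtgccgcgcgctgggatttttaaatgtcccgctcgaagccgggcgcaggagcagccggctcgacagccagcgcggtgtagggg
Cdc20 held 1 CHR and 2 CCAAT boxes and Plk1 1 of each, whereas Ccnb1, which encodes the cyclin partner of CDK1, had 2 CCAAT boxes and 1 E2F form but no CHR of the form TTTGAA. Ccnb1 did hold TTTAAA, counted only in the wider CHR and left in lower case here. The E2F form and the first CCAAT box of Ccnb1 share letters. Mcm5 held 3 CCAAT boxes and 3 E2F forms, 2 of which overlap. Mcm2 was the replication member with a CHR. The promoter of E2f1 is not shown because the RefSeq start lay 466 bases inside the annotated gene, and the starts of Mcm7, Mybl2, Aurka and Cdc6 also lay over 200 bases inside. The motif counts above include these entries.

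Levels of different members can be compared only per length, here as normalized counts per kb of exon (GENCODE vM21), with the caution that the annotation used for counting is not given in the sources used here. The length counts every exon base of any annotated transcript of a gene, which can exceed the length of the transcripts present. The order of members per kb depends on it. Pcna, the sliding clamp of DNA polymerase, was the highest member in both models, with a mean of 600 per kb in 4T1 (n = 19) and 650 per kb in 66cl4 (n = 20). Cdc20, the activator of the anaphase-promoting complex, came second with 335 and 378 per kb. Ccne1, encoding the G1/S cyclin E1, was the lowest member with 24.3 and 27.7 per kb, followed in 4T1 by the long centromere gene Cenpf (27.7 per kb) and in 66cl4 by the origin licensing gene Cdc6 (30.7 per kb). The Mcm genes, which encode the replicative helicase, differed little among themselves in 4T1, from 210 per kb for Mcm4 to 260 per kb for Mcm3, apart from Mcm2 with 110 per kb. GENCODE lists pseudogenes of Ccnb1, Ccnb2, Pcna and Tyms, and Foxm1 and Cdt1 overlap other coding genes on the same strand, so that reads of these 6 members could be shared with those copies or neighbors.

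**Figure D1:**
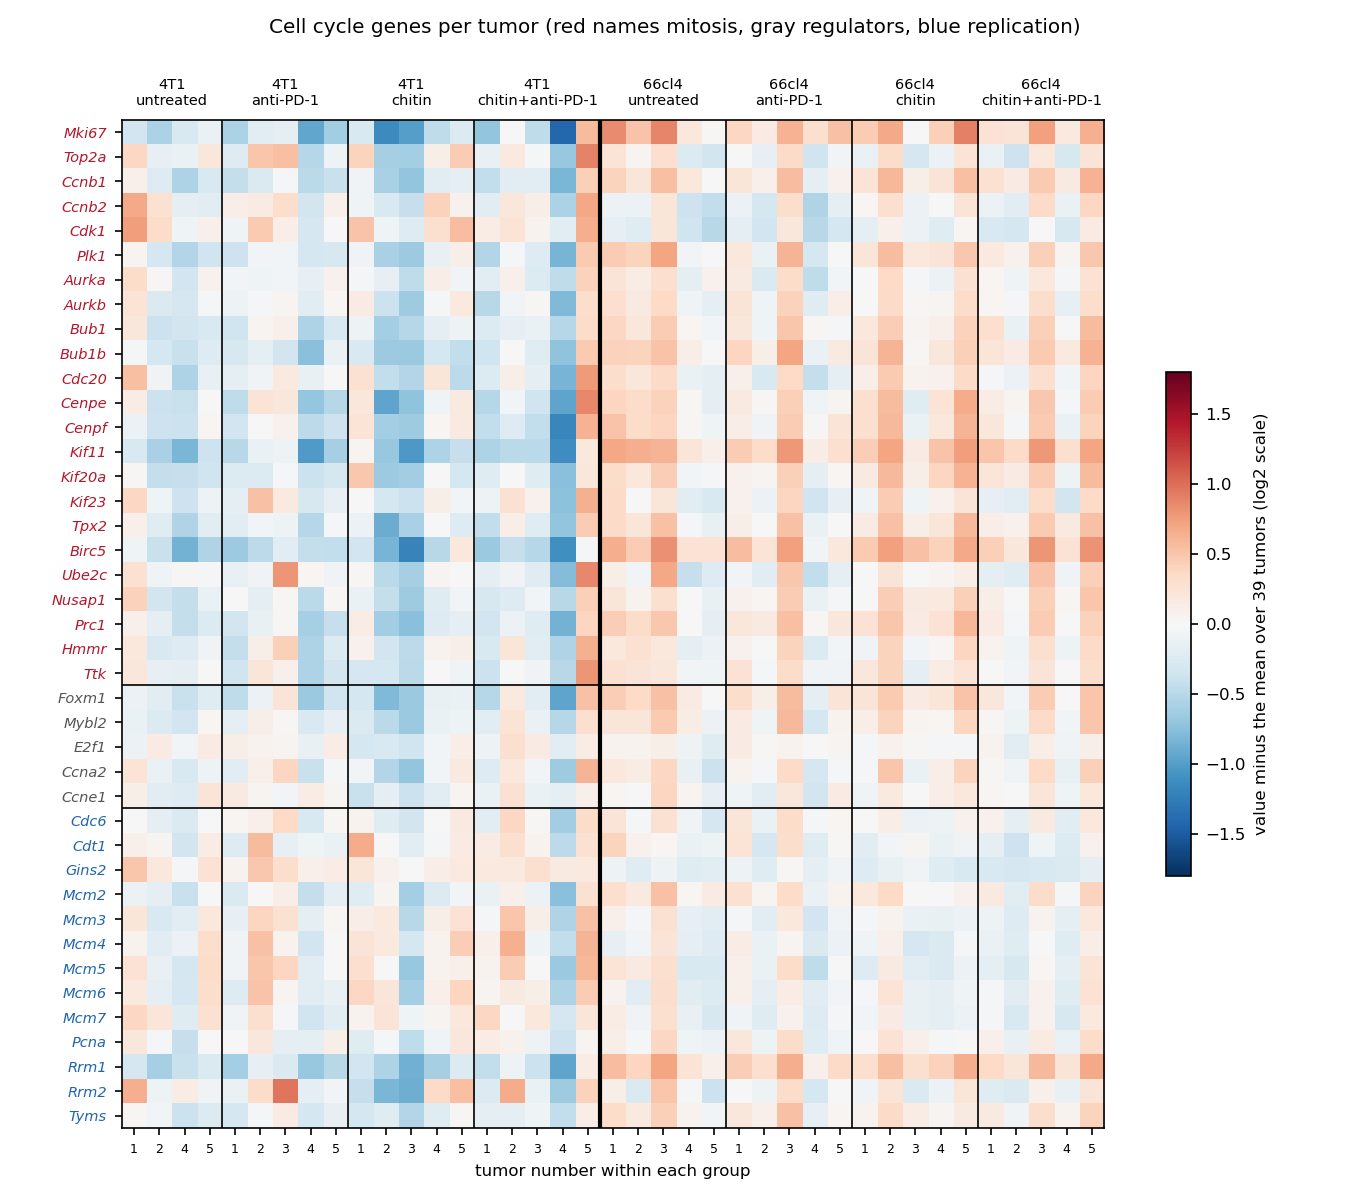
Heat map of the 41 members (rows) in 39 tumors (columns), colored by the value minus the mean of the gene over all tumors on the log2 scale of the table. Columns are ordered by group, with a thick line between 4T1 and 66cl4, and tumor 5 of the 4T1 chitin+anti-PD-1 group stands out as high while tumor 4 of that group stands out as low.

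The models were compared first without treatment. In untreated 4T1 tumors, Mki67 was lower than in untreated 66cl4 tumors, and so were the motor gene Kif11, Birc5, which encodes survivin, and Rrm1, the large subunit of ribonucleotide reductase. By limma, 12 of 41 members (29.3%) passed the threshold of an adjusted p of 0.05 as lower in 4T1, where 27.1% of all genes did, and 2 of 41 (4.88%) as higher, where 28.7% of all genes did. The share of members that were lower was thus close to that of all genes, whereas fewer members than genes at large were higher. Of the lower members, 8 were mitosis genes, 3 replication genes and 1 a regulator, and the 2 higher members were Cdk1 and Gins2. limma-voom on recovered reads called 14 members as well, and 7634 of all 14318 genes. Without tumor 4 of untreated 4T1, 8 members were called in all, and without tumor 3 of untreated 66cl4, 9. Counts over all genes are not given here for these fits, so the lower counts cannot be read as a trait of the members. The labels do not say that each tumor came from a separate mouse, and since a gland pair was inoculated, tumors of a group could share a mouse. The p-values here treat the tumors as independent and rest on the spread between them.

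Mki67 measured 1172, 982, 1233 and 1388 normalized counts in the 4 untreated 4T1 tumors and 2858, 2228, 2923, 1766 and 1556 in the 5 untreated 66cl4 tumors. The groups did not overlap, and the difference (4T1 minus 66cl4) was −0.83 ± 0.25 on the log2 scale (SE, adjusted p = 0.00635 by limma). Kif11, the kinesin that pushes spindle poles apart, measured 565, 433, 345 and 518 in 4T1 and 1215, 1178, 1145, 845 and 755 in 66cl4. Its difference was the largest of the members here, −0.97 ± 0.21 (adjusted p = 0.000189). Birc5, a subunit of the chromosomal passenger complex, measured 532, 399, 262 and 354 in 4T1 and 962, 824, 1091, 698 and 699 in 66cl4, a difference of −0.96 ± 0.21 (adjusted p = 0.000198).

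Among replication genes, Rrm1 measured 667, 525, 618 and 695 normalized counts in untreated 4T1 and 1308, 1154, 1476, 1034 and 917 in untreated 66cl4 tumors. Its difference was −0.79 ± 0.16 (adjusted p = 8.67e-05). Gins2, a subunit of the GINS complex that travels with the helicase, went the other way and had the smallest p of the members. It measured 542, 413, 338 and 439 in 4T1 and 319, 283, 318, 286 and 288 in 66cl4, a difference of 0.39 ± 0.08 (adjusted p = 7.94e-05). Values of the models did not overlap for Gins2 (higher in 4T1) and for 7 lower members, namely Mki67, Bub1b, Kif11, Birc5, Foxm1, Mcm2 and Rrm1, whereas 43.1% of all genes had no overlap in this comparison of 4 with 5 tumors.

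Over the 4 treatments, with 19 against 20 tumors, the same comparison gave 20 members lower in 4T1 (48.8%, against 38.0% of all genes) and 2 higher, again Cdk1 and Gins2 (4.88%, against 40.8% of all genes). Of the mitosis members, 15 of 23 were lower and Cdk1 was higher. Of the replication members, 3 of 13 were lower (Rrm1, Tyms and Mcm2) and Gins2 was higher. Foxm1 and Mybl2 were lower among the regulators. The median difference was −0.41 for mitosis, −0.17 for regulators and 0.07 for replication members, beside 0.02 over all genes. limma-voom called 24 members and 11232 of all 14318 genes.

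**Figure D2:**
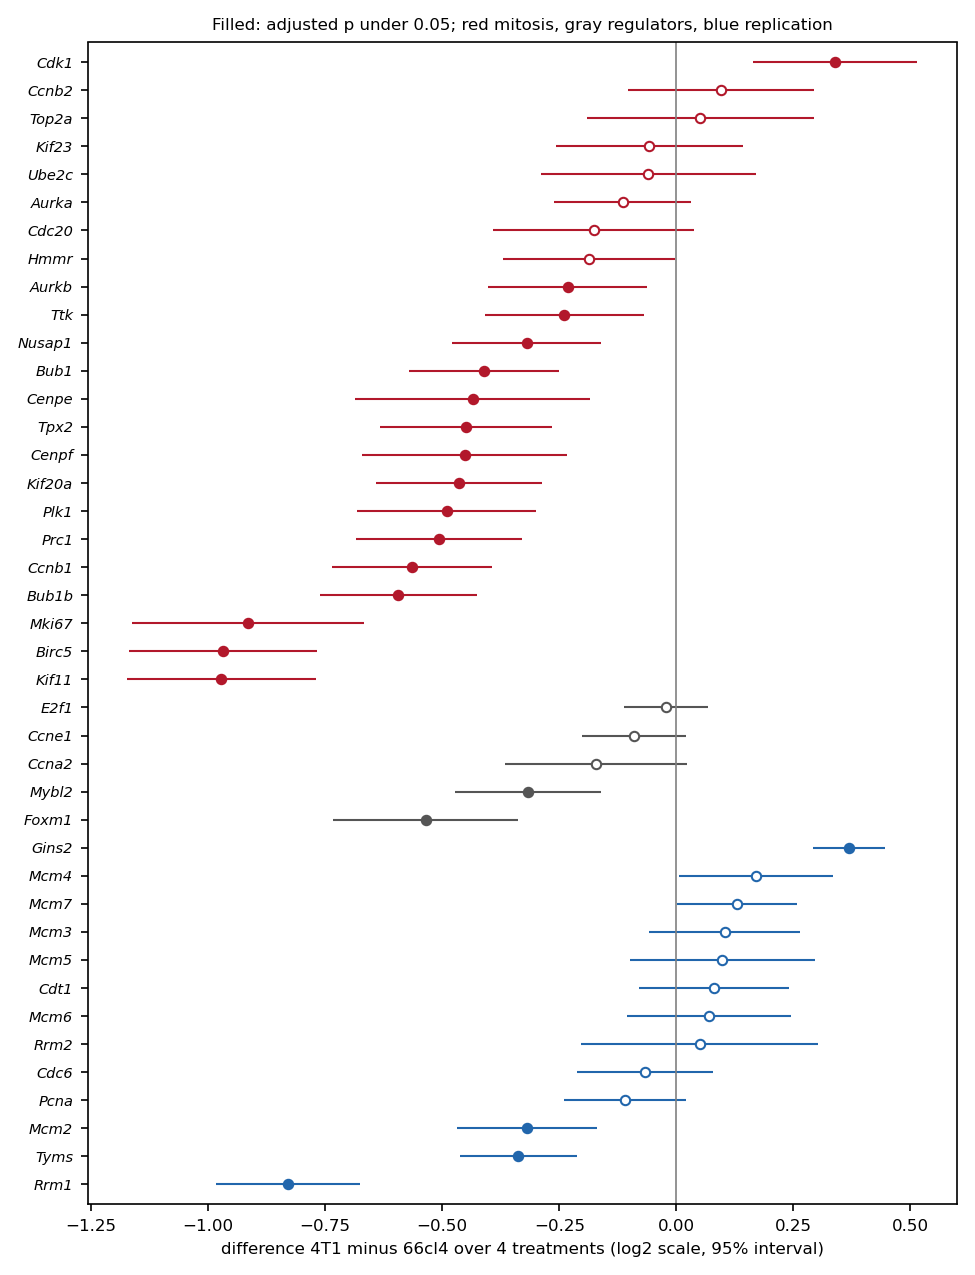
Difference of each member between 4T1 and 66cl4 tumors over the 4 treatments on the log2 scale (x axis), with points for the estimate, bars for the 95% interval and filled points for an adjusted p under 0.05 by limma. Kif11, Birc5, Mki67 and Rrm1 lie farthest to the left, and Cdk1 and Gins2 are the filled points to the right of 0.

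Rrm1 had the smallest p here, with −0.83 ± 0.08 (adjusted p = 5.23e-12), and ranged from 386 to 948 normalized counts (median 618) in 4T1 and from 917 to 1476 (median 1142) in 66cl4 tumors. All but 1 of the 4T1 tumors lay below every 66cl4 tumor. The other subunit of the enzyme, Rrm2, did not pass the test, and its medians were 617 in 4T1 and 626 in 66cl4. Kif11 (−0.97 ± 0.10, adjusted p = 7.53e-11), Birc5 (−0.97 ± 0.10, adjusted p = 7.08e-11) and Mki67 (−0.91 ± 0.12, adjusted p = 2.63e-08) were the largest differences among mitosis members. For Kif11 and Mki67, 18 of 19 tumors of 4T1 lay below every 66cl4 tumor, and for Birc5 17 of 19. Gins2 was higher in 4T1 by 0.37 ± 0.04 (adjusted p = 7.9e-11), with 338 to 542 normalized counts in 4T1 and 262 to 354 in 66cl4, and 17 of 19 tumors of 4T1 lay above every 66cl4 tumor.

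Members with closely linked roles did not differ alike. Ccnb1 was lower in 4T1 (median 331 against 508 normalized counts), whereas Ccnb2, the other B-type cyclin measured, did not pass the test (median 510 against 426). Cdk1, the kinase both cyclins activate, was higher in 4T1 (median 641 against 492). Top2a, the topoisomerase that untangles sister chromosomes and a common marker of dividing cells, did not pass the test, with 1378 to 4392 normalized counts (median 2230) in 4T1 and 1750 to 2946 (median 2175) in 66cl4. Foxm1 ranged from 199 to 755 (median 402) in 4T1 and from 419 to 777 (median 593) in 66cl4.

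Among replication and G1/S genes other than Rrm1 and Gins2, Mcm2 was also lower in 4T1 (median 777 against 961 normalized counts), and Mcm5, another subunit of the same helicase, did not pass the test (median 996 against 866). Pcna had medians of 1449 and 1493, E2f1, the factor that switches on replication genes, 287 and 283, and Ccne1 62.7 and 71.4, and none of these 3 passed the test. No member had values that did not overlap between the 19 and 20 tumors, a pattern that 17.9% of all genes showed.

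Cell line, its stroma, the number of cells inoculated and any batch of the models cannot be told apart in these differences. Along with them, the summed normalized counts of 12 macrophage markers ran from 14000 to 143300 (median 66460) in 4T1 and from 78590 to 164500 (median 128000) in 66cl4. Those of 12 epithelial markers ran from 17710 to 66550 in 4T1 and from 3408 to 6221 in 66cl4, and those of 12 fibroblast and stroma markers from 6565 to 194100 and from 10970 to 28040. Of these lists, 11 of 12 macrophage markers were lower in 4T1, 12 of 12 epithelial markers were higher, and of the stroma markers 7 were higher and 2 lower. Of the 11 neutrophil markers measured, 10 were higher in 4T1. Their part in the differences of the members was not tested. Without the 12 tumors high in muscle, fat or milk genes, 26 members and 10491 of all 14318 genes were called over the 4 treatments. Between untreated tumors, also without those 12, 10 members and 7725 genes were called.

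**Figure D3:**
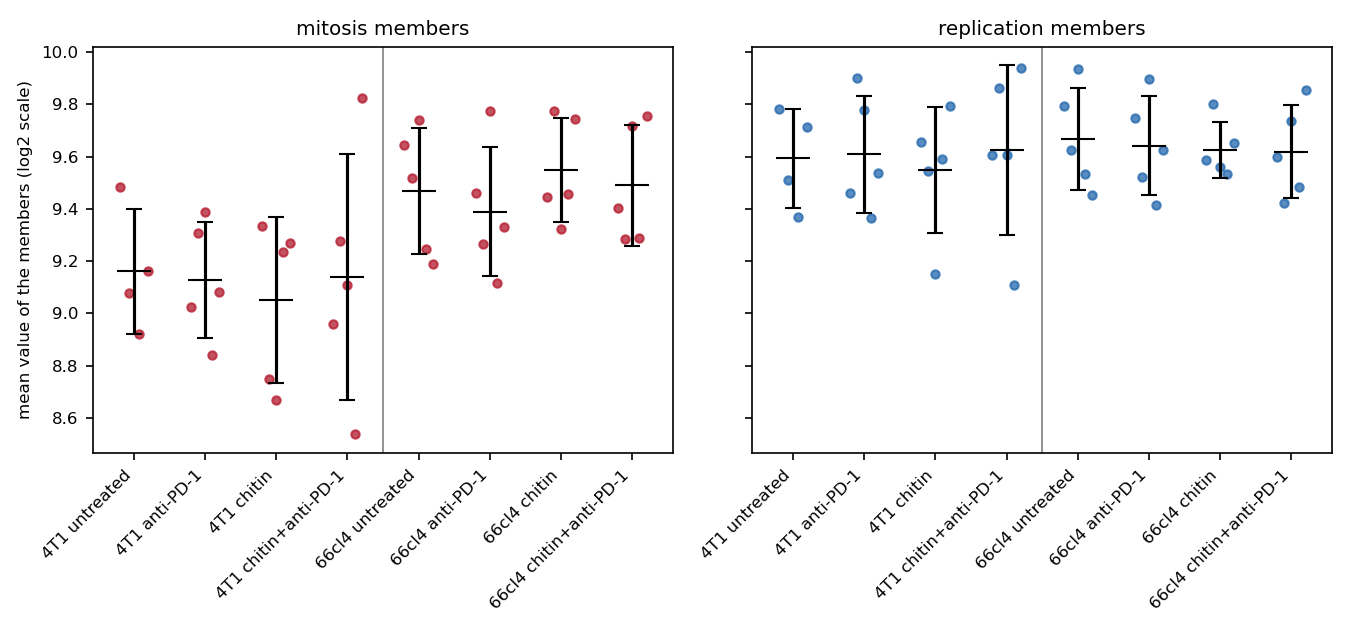
Mean value of the 23 mitosis members (left) and of the 13 replication members (right) in each tumor on the log2 scale of the table, by group, with points for tumors and black marks for the group mean and SD. The 4 groups of 66cl4 lie above those of 4T1 in their mean for mitosis, whereas group means for replication lie at similar heights.

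The mean over the mitosis members was 9.16 in untreated, 9.13 in anti-PD-1-treated, 9.05 in chitin-treated and 9.14 in chitin+anti-PD-1-treated 4T1 tumors, and 9.47, 9.39, 9.55 and 9.49 in the same groups of 66cl4. The mean over the replication members was 9.59, 9.61, 9.55 and 9.63 in 4T1 and 9.67, 9.64, 9.63 and 9.62 in 66cl4. The replication mean was subtracted from the mitosis mean within each tumor to compare tumors, since its level depends on which genes are listed. It gave −0.47 ± 0.15 (SD, n = 19) in 4T1 and −0.17 ± 0.11 (SD, n = 20) in 66cl4. The tumors of the models overlapped in this difference, which ran from −0.80 to −0.11 in 4T1 and from −0.30 to 0.09 in 66cl4.

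**Figure D4:**
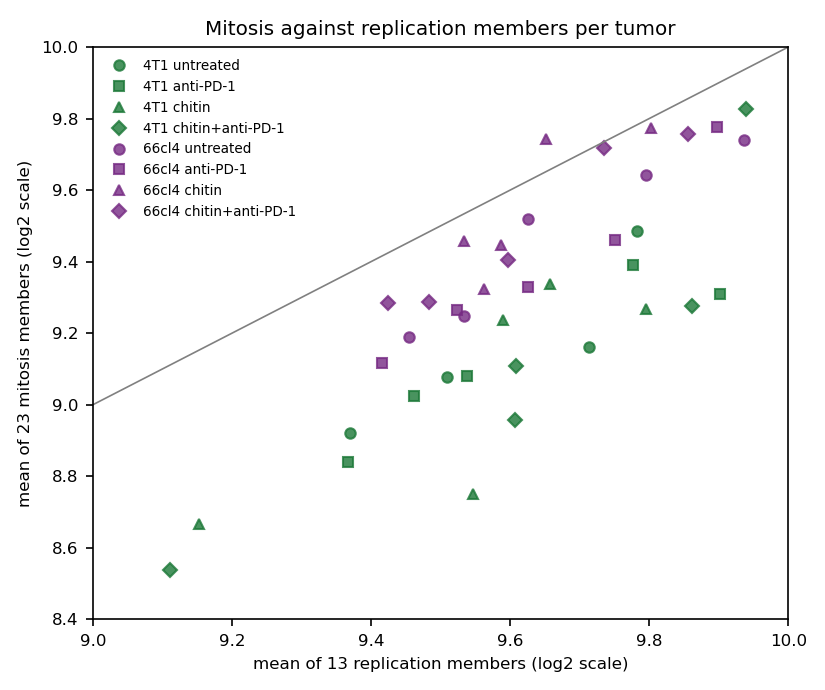
Mean of the 23 mitosis members (y axis) against the mean of the 13 replication members (x axis) in each tumor, both on the log2 scale of the table, with green symbols for 4T1, purple symbols for 66cl4 and a gray line of equal means as a guide, whose place depends on which genes are listed. Tumors high in one list are high in the other, and most 4T1 tumors lie farther below the gray line than the 66cl4 tumors.

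Treatment was then compared within each model. In 4T1, none of the 41 members passed the threshold under anti-PD-1, chitin or chitin+anti-PD-1 compared to untreated tumors, and 0% of all genes did. For anti-PD-1 this background depended on the model fitted, with 960 genes called with tumor weights and 60 with both models in 1 fit, and 0 members in each. No member had an unadjusted p under 0.05 in these 3 comparisons, where 8.89%, 2.77% and 2.56% of all genes did, and limma-voom called no member either. The 3 comparisons share the untreated tumors. The median difference of the mitosis members was −0.02 under anti-PD-1, −0.12 under chitin and −0.03 under chitin+anti-PD-1, that of the replication members 0.02, −0.06 and 0.04, and the median over all genes was within 0.003 of 0 in each. Differences of 33 of 41 members lay below 0 under chitin, beside 51.0% of all genes, but the members rise and fall together, as described below, and do not count as separate observations.

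The precision limits what this shows. The SE of a member had a median of 0.21 in 4T1, and the 95% intervals of the 41 members reached from −0.79 to 0.71 under anti-PD-1, from −1.08 to 0.62 under chitin and from −0.82 to 0.63 under chitin+anti-PD-1. These are the outermost bounds of 41 intervals, and members with a smaller spread had narrower ones. Mki67 measured 988, 1320, 1330, 735 and 944 normalized counts under anti-PD-1, 1240, 620, 701, 1071 and 1269 under chitin, and 885, 1515, 1081, 493 and 2312 under chitin+anti-PD-1. Each treated group overlapped with the untreated one (982 to 1388), and the lowest and the highest 4T1 value both came from chitin+anti-PD-1. The same 2 tumors, 4 and 5, held the lowest and highest mean over the mitosis members in 4T1, 8.54 and 9.83.

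E2f1 and Ccne1 were the members with the smallest p under chitin in 4T1. E2f1 measured 246, 316, 259 and 313 normalized counts in untreated tumors, 303, 289, 287, 241 and 312 under anti-PD-1, 197, 208, 188, 260 and 307 under chitin, and 249, 358, 315, 228 and 310 under chitin+anti-PD-1. The groups overlapped, and the difference of chitin from untreated was −0.21 ± 0.11 (adjusted p = 1.0 by limma). Between chitin+anti-PD-1 and chitin it was 0.23 ± 0.11 (adjusted p = 1.0 by limma), and E2f1 was the 1 member with an unadjusted p under 0.05 there, beside 3.11% of all genes. Ccne1 measured 79.2, 48.5, 46.5 and 94.4 in untreated tumors and 33.2, 51.8, 34.6, 49.1 and 73.5 under chitin. Its difference was −0.19 ± 0.12 (adjusted p = 1.0 by limma), and the groups overlapped.

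No member passed the threshold in the other comparisons of 4T1, where 0% of all genes did, and none had an unadjusted p under 0.05 between chitin+anti-PD-1 and anti-PD-1 (9.13% of all genes), between groups given chitin and groups not given it (7.28%) or for the interaction of chitin and anti-PD-1 (4.53%). limma-voom called none either. With tumor weights, 2127 genes were called between chitin+anti-PD-1 and anti-PD-1 and 297 between groups given chitin and the others, and with both models in 1 fit 294 and 58, with 0 members in each. Bub1b, a spindle checkpoint gene, had the smallest p for the interaction, 0.39 ± 0.25 (adjusted p = 0.927 by limma). Along with treatment in 4T1, the summed normalized counts of 11 measured fat markers ran from 814 to 18480 under anti-PD-1 and from 865 to 2352 in untreated tumors, and those of 11 T-cell markers from 1085 to 2643 and from 461 to 1558. Their part in these comparisons was not tested.

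In 66cl4, none of the 41 members passed the threshold under anti-PD-1, chitin or chitin+anti-PD-1 compared to untreated tumors either, and 0% of all genes did. No member had an unadjusted p under 0.05, where 5.36%, 11.4% and 10.6% of all genes did, and limma-voom called no member. These 3 comparisons, too, share the untreated tumors. The median difference of the mitosis members was −0.08 under anti-PD-1, 0.08 under chitin and 0.03 under chitin+anti-PD-1, and that of the replication members −0.03, −0.04 and −0.05. Under chitin, 22 of 23 mitosis members lay above 0 and 9 of 13 replication members below it, beside 50% of all genes below 0. Here, too, the members rise and fall together and do not count as separate observations. The 95% intervals of the members reached from −0.56 to 0.31 under anti-PD-1, from −0.45 to 0.56 under chitin and from −0.46 to 0.53 under chitin+anti-PD-1, which is narrower than in 4T1.

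**Figure D5:**
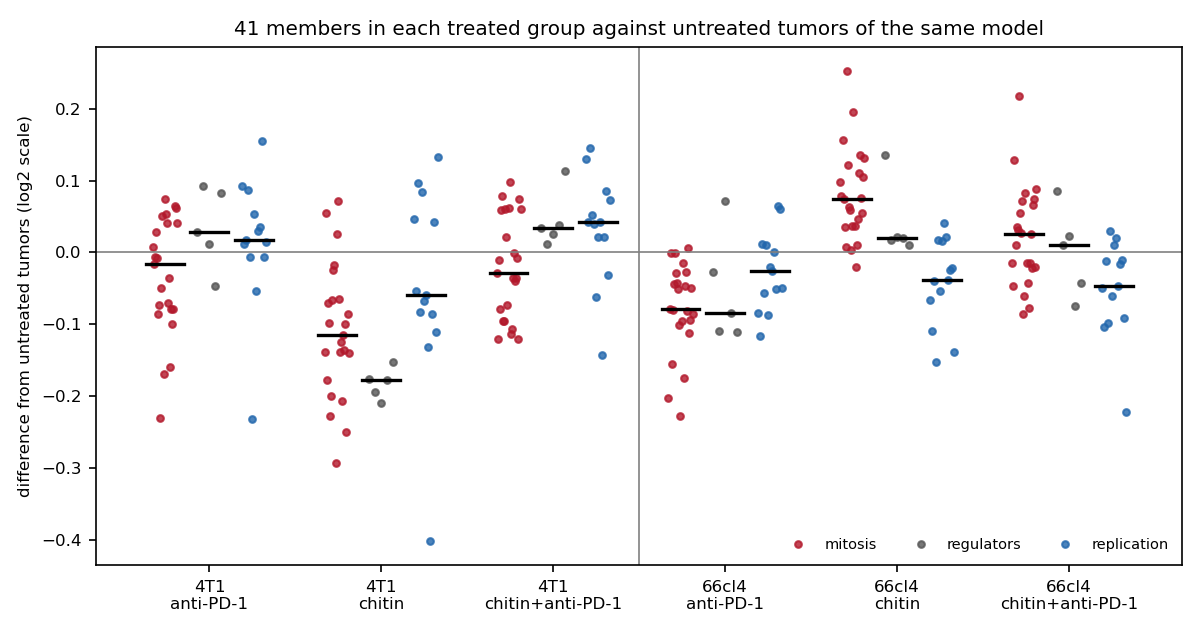
Difference of each of the 41 members between a treated group and the untreated tumors of the same model on the log2 scale (y axis), with 1 point per gene, colors for the lists and black bars for list medians. No point passed the threshold, and in 66cl4 most mitosis members lie below 0 under anti-PD-1 and above 0 under chitin. Members rise and fall together, so the points are not separate observations.

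Mki67 measured 2014, 1700, 2421, 1894 and 2261 normalized counts under anti-PD-1, 2152, 2512, 1541, 2104 and 2964 under chitin, and 1853, 1806, 2639, 1744 and 2440 under chitin+anti-PD-1 in 66cl4. The groups overlapped with each other and with untreated tumors (1556 to 2923). Between 66cl4 groups given chitin and those not given it, no member passed the threshold (0% of all genes did), 2 members had an unadjusted p under 0.05 beside 15.6% of all genes, and limma-voom called none. With tumor weights 185 genes and 0 members were called. Ccnb2 was 1 of the 2 members with an unadjusted p under 0.05. It measured 427, 425, 564, 338 and 314 normalized counts in untreated tumors and 425, 354, 610, 286 and 406 under anti-PD-1. Under chitin it measured 483, 599, 427, 469 and 571, and under chitin+anti-PD-1 426, 391, 626, 419 and 642. The groups overlapped, and its difference was 0.24 ± 0.11 (adjusted p = 0.291 by limma).

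Gins2 was the other, with −0.09 ± 0.04 (adjusted p = 0.267 by limma). It measured 318, 282, 354, 300 and 329 normalized counts under anti-PD-1, 279, 308, 328, 285 and 268 under chitin, and 270, 262, 269, 272 and 296 under chitin+anti-PD-1, next to the untreated values given above. Gins2 was also the 1 member with an unadjusted p under 0.05 between chitin+anti-PD-1 and anti-PD-1 (−0.15 ± 0.05, adjusted p = 0.513 by limma), beside 8.3% of all genes, and all but 1 value under chitin+anti-PD-1 lay below every value under anti-PD-1. No member had an unadjusted p under 0.05 between chitin+anti-PD-1 and chitin (3.07% of all genes) or for the interaction (4.99%), and no gene passed the threshold in these 3 comparisons. limma-voom called no member there.

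The difference between mitosis and replication means in 66cl4 tumors was −0.20 ± 0.08 in untreated, −0.25 ± 0.07 in anti-PD-1-treated, −0.08 ± 0.12 in chitin-treated and −0.13 ± 0.07 in chitin+anti-PD-1-treated tumors (SD, n = 5 each). The groups overlapped, from −0.29 to −0.11 in untreated and from −0.24 to 0.09 in chitin-treated tumors. Along with chitin in 66cl4, read depth was higher, as given above, and macrophage markers summed to 111600 to 163900 normalized counts under chitin and 123200 to 164500 under chitin+anti-PD-1, against 78590 to 143300 in untreated tumors. At equal read depth no member passed the threshold in 66cl4. The part of the macrophage markers was not tested.

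The effect of treatment was also compared between models. Pooling both groups that received chitin and both that did not, the chitin difference was not alike in 4T1 and 66cl4 for 14 genes (0.0978%), none of which was a member, and 0 members had an unadjusted p under 0.05 where 13.2% of all genes did. The median was −0.12 over the mitosis members and 0.04 over the replication members, beside 0.01 over all genes. Below 0 lay all 23 mitosis members, which rise and fall together, beside 48.1% of all genes. The SD of the mitosis mean within groups, given below, exceeded the size of the mitosis median in both models. That SD is between single tumors and is not an SE of the median, which was not tested. Ccne1 had the smallest p of the members, −0.21 ± 0.11 (adjusted p = 0.434 by limma). For anti-PD-1 against untreated tumors, no gene (0%) and no member differed between models, and 0 members had an unadjusted p under 0.05 where 7.27% of all genes did. limma-voom called no member in either. With tumor weights, 1004 genes were called for chitin and 331 for anti-PD-1, and with a replicate block 104 for chitin, with 0 members in each.

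Within groups, members rose and fell together from tumor to tumor. After subtracting group means, the median Pearson r between pairs of mitosis members was 0.84 in 4T1 (19 tumors) and 0.90 in 66cl4 (20 tumors), and between pairs of replication members 0.71 and 0.84. Between a mitosis and a replication member it was 0.71 and 0.83, and between the 2 list means 0.89 and 0.94. These r values are descriptions over tumors whose values share a library and its depth. The SD of the mitosis mean within groups was 0.33 in 4T1 and 0.23 in 66cl4, and that of the replication mean 0.25 and 0.17. Gins2 (r = 0.61 and 0.63 with the mean of the other replication members) and, in 4T1, Ccne1 (r = 0.50 with the other regulators) followed their lists least closely.

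The 10 genes outside the 41 whose values, after subtracting group means, were most like the mitosis mean over all 39 tumors were Nek2, Cep55, Dlgap5, Ckap2, Ncapg, Spag5, Smc2, Ska3, Plk4 and Kif14, with r from 0.96 to 0.94. The first of these encodes a centrosomal kinase and Cep55 a protein of the last step of cell separation. For the replication mean they were Asf1b, Lig1, Cdc45, Dtl, Mcm10, Uhrf1, Exo1, Shcbp1, Hmgb2 and Pbk, with r from 0.94 to 0.89. Lig1 joins Okazaki fragments, and Cdc45 and Mcm10 act at the replicative helicase. Of these 20 genes, 16 were on the lists of further cell cycle genes used below.

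Those further lists were compared between models over the 4 treatments, where 38.0% of all genes were lower and 40.8% higher in 4T1. Of 62 other mitosis genes, 52 were lower and 1 higher in 4T1, with a median difference of −0.36. Cdc25b, the phosphatase that activates CDK1, and the kinesin gene Kif20b differed by −0.82 ± 0.06 (adjusted p = 9.36e-15) and −0.93 ± 0.09 (adjusted p = 3.15e-11). Of 58 other replication genes, 31 were lower and 12 higher, with a median of −0.15. Tk1, a thymidine kinase, differed by −1.20 ± 0.10 (adjusted p = 1.79e-13), with group means from 504 to 554 normalized counts in 4T1 and from 1269 to 1495 in 66cl4. Of 22 G1 cyclin, CDK and E2F genes, 10 were lower and 6 higher, and Myc was higher by 0.73 ± 0.07 (adjusted p = 9.61e-12). Of 15 genes of cell cycle inhibitors, 7 were lower and 3 higher, and Cdkn2c, an inhibitor of CDK4 and CDK6, was lower by 0.77 on the log2 scale (SE 0.07, adjusted p = 6.07e-13). None of these genes passed the threshold in the comparisons of treatment within models.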

How the data were processed

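Values of 39 primary tumors, sequenced from stranded libraries, were used, and the authors excluded untreated 4T1 tumor 3 for degraded RNA. The authors aligned reads with HISAT2 to mm10, counted them per gene with summarizeOverlaps, filtered out genes that did not exceed 10 reads in 10% or more of cases and deposited variance-stabilized values from DESeq2, which are on a log2 scale (per the labels and the study's methods). The annotation used for counting and the tool versions are not given in the sources used here. A value of 6.05 stands for 0 reads. Reads were recovered from the deposited log2 values by inverting the transformation, and 100% of values came out whole within 0.001. They gave 5105898 to 14800352 reads per tumor, and normalized counts are those reads divided by size factors.

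Tumors were grouped by the treatment and cell line in their labels. Differences were tested on the deposited values with limma 3.58.1 in R 4.3.3 (empirical Bayes with a mean-variance trend), within each model, and between models in 1 model of all 8 groups. p-values were adjusted by Benjamini-Hochberg over all 14318 genes with a threshold of 0.05, and tests were two-sided. Figures and summaries were made with Python 3.11.15, numpy 2.4.6, pandas 2.3.3 and matplotlib 3.10.9. The tests were tried on simulated data. Differences are given for members among the 5 with the smallest p in a comparison. Per-tumor values are given for Mki67, Ccne1, E2f1 and members with the smallest p. Ranges or medians are given for Top2a, Ccnb1, Foxm1, Mcm2, Mcm5 and Pcna. Further genes are the 3 with the smallest p in a list or the 10 most like a list mean. The members, the further gene lists and the marker lists were chosen with earlier results of these data known. Alternatives were median centring, quantile normalization, tumor weights, a filter on low genes, no trend, equal read depth, limma-voom on recovered reads, a replicate block, both models in 1 fit, leaving out each tumor, and other promoter windows and motifs. The exclusion of tumors high in muscle, fat or milk genes was chosen after seeing the data.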

Additional observations from a re-analysis of the deposited data

Results flagged for a closer look

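Within groups of 4 or 5 tumors, 5 values of members stood apart from the others of their group by Dixon's criterion, among 352 groups tested, where chance flags about 1 in 20 groups. All 5 were in 4T1. Kif20a, a kinesin gene of cell separation, measured 563.9 normalized counts in untreated tumor 1 and 383.1 to 408.9 in the others. Ube2c, which works with the anaphase-promoting complex, measured 1043 in anti-PD-1 tumor 3 and 492.1 to 569 in the others. Cdt1, which loads the helicase onto origins, measured 776.2 in anti-PD-1 tumor 2 and 395.7 to 456.4 in the others. Gins2 measured 450.0 in chitin+anti-PD-1 tumor 3 and 405 to 409.7 in the others. Mcm3, a helicase subunit, measured 608.5 in chitin tumor 3 and 990.6 to 1119 in the others.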

How the results depend on the processing

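In the 16 comparisons of treatment, 0 members were called under every alternative run, whereas calls over all genes ran up to 2127, with tumor weights. Between untreated tumors, 14 members were called, and 10 to 17 under the alternatives that kept each tumor or left out those high in muscle, fat or milk genes. Those alternatives called 7634 to 8012 of all 14318 genes, and the filter on low genes 6083 of 10738. Leaving out 1 tumor gave 8 to 16 members, for which the counts over all genes are not given here. Over the 4 treatments, 22 members were called, and 22 to 26 under the alternatives. There, 10491 to 11554 of all 14318 genes were called, and 8469 of 10738 with the filter. With the tumor number as a replicate block, 14 and 24 members were called. Same-numbered tumors did not deviate together (r over 0.1 in 11 of 27 pairs in 4T1 and 11 of 30 in 66cl4), so the numbers were not read as pairs. In the 150 bases before the start, a CHR was held by 7 mitosis promoters (6.94% of all promoters), and over the whole window its wider form was held by 19 (25.1% of all promoters). None of the differences that changed sign passed the threshold. Leaving out 1 tumor, Aurkb between chitin+anti-PD-1 and untreated 4T1 ran from −0.242 to 0.034 (without chitin+anti-PD-1 tumors 5 and 4), and Ttk between chitin+anti-PD-1 and anti-PD-1 from −0.048 to 0.277 (without the same tumors). The cause was not tested. Without the 12 tumors high in muscle, fat or milk genes, anti-PD-1 minus untreated in 4T1 became −0.001 for Ccne1, 0.082 for Cdk1 and 0.197 for Ttk, and chitin+anti-PD-1 minus anti-PD-1 became −0.026 for Bub1b, −0.092 for Mcm7 and −0.361 for Ttk. There, 1 anti-PD-1 tumor of 4T1 was left and was assumed to vary like the other groups. Mcm2 in the interaction in 66cl4 became −0.024, Cdt1 in the chitin difference between models −0.001, and Cdk1 and Mcm7 in the anti-PD-1 difference between models 0.005 and 0.009. Depth and 4 or 5 tumors per group limit the precision of treatment differences to the intervals given above.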

Other observations

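The ratio of 2 members within a tumor was read after their values had been seen, and is given as a description. Ccnb1 over Ccnb2 ran from 0.53 to 0.911 (median 0.658) in 4T1 and from 0.993 to 1.46 (median 1.17) in 66cl4. Mki67 over Top2a ran from 0.358 to 0.587 and from 0.822 to 1.08, and Birc5 over Cdk1 from 0.384 to 0.871 and from 1.43 to 1.87. The ratios given here were picked because they did not overlap between the models, which held for 107 of all 820 pairs of members. In most pairs the ratios of the models overlapped, as for Rrm1 over Rrm2 and Mcm2 over Mcm5.

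Among genes outside the 41, Selenon, which encodes a selenoprotein, had the lowest r with the mitosis mean over 39 tumors after subtracting group means, −0.86, followed by Cdip1 with −0.81. Selenon also had the lowest r with the replication mean, −0.81. These genes, too, were picked after their values were seen, and the tumors share libraries and depth.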
